A study of Homo sapiens with 2 samples.

Results

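The intron peaks of mRNA genes are the peaks, annotated to introns of protein-coding genes, at which RNA recovered with PTBP1 exceeded the IgG control in MKN-28 cells. They were taken from the list of mRNA peaks as every peak whose annotation class was intron, each position counted once with the first transcript listed for it, leaving out ADARB2 and the NBPF family. This gave 1230 of the 8479 mRNA peaks and of the 10254 peak positions in the mRNA and lncRNA lists together, and 51 of the 1281 intron peaks belonged to the names left out. The 1230 peaks were named for 990 genes.

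The data came from RNA immunoprecipitation and sequencing (RIP-seq) of extract from MKN-28, an established gastric cancer cell line grown without further treatment. There was 1 library pulled down with a PTBP1 antibody and 1 with normal rabbit IgG as the negative control. Ribosomal RNA was removed before sequencing, and both libraries came from unmodified cells of the same line. With 1 library of each kind the difference between PTBP1 and IgG had no replicate check, so no p-value across genes is given, and the intervals below cover the counting of peaks only.

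PTBP1 belongs to the hnRNP family and recognises stretches of RNA rich in U and C. In the nucleus it is best known for binding tracts in introns, often near a splice site, and for keeping alternative exons out of the mature mRNA, among them exons used in neurons or muscle. Intronic sequence exists only in pre-mRNA and in retained or excised introns, so an intron peak comes from unspliced, partly spliced or excised RNA, or from another transcript at the same place. The peaks carry no strand.

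Each peak has a fold enrichment of PTBP1 over IgG, a count of tags (sequenced fragments) inside the peak, a p score, which is the negative log10 of the p-value multiplied by 10, and a false discovery rate. All are the authors' values. The class followed the centre of the peak. The deposited distance to the transcript start equalled that of the peak centre for 1230 of 1230 peaks, every centre lay inside the named transcript, and 1226 peaks lay wholly inside it. The peaks of ETV2, FKBP11, CFL1 and CGA ran past an end of it by 288, 101, 135 and 30 bases. Long peaks can therefore reach over an exon although their centre is intronic. Exon overlap was not analysed here.

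Intron peaks were small in tags and high in fold. Their median fold was 8.285 (95% interval of the median 7.87 to 8.70, quartiles 6.12 and 11.04, n = 1230), against 6.38 (6.25 to 6.52) for the 2747 exon peaks and 6.87 (6.76 to 6.96) for all 7249 other mRNA peaks. Intergenic peaks came closest, with a median of 7.61 (7.36 to 7.88). Intron peaks had the fewest tags, with a median of 10 tags (9 to 10) per intron peak, 11 (10 to 12) per intergenic peak, 14 (13 to 14) per exon peak and 16 (15 to 17) per promoter peak. Of the intron peaks 77.8% (95% Wilson interval 75.4 to 80.0%) held fewer than 20 tags, against 60.9% of the exon peaks. Only 49 (3.98%, 3.03 to 5.23%) held 100 tags or more, against 11.1% of the exon peaks. A fold of at least 10 was reached by 411 intron peaks (33.4%, 30.8 to 36.1%). The share was 24.0% over all mRNA peaks and 21.7% over exon peaks. By p score the order turned, since 34.6% of the intron peaks and 48.1% of the exon peaks scored at least 50.

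The fold depended on the tag count. Peaks with 6 or 7 tags, the fewest in the list, had the same median fold of 9.20 in introns (n = 420) and in exons (n = 554). At 8 to 12 tags the median was 9.43 (9.13 to 10.18) in introns and 7.58 (7.29 to 7.91) in exons, but intergenic peaks of that size had 9.13 and promoter peaks 8.82. At 20 to 49 tags the medians were 6.08 (5.59 to 6.48) in introns and 5.22 (5.06 to 5.48) in exons. From 50 tags up, the intervals of introns (4.78, 4.46 to 5.11, n = 107) and exons (4.57, 4.38 to 4.78) overlapped. The higher fold of intron peaks thus went in part with their lower tag counts. At like counts it was seen against exon peaks at 8 to 12 and at 20 to 49 tags, and the intergenic medians there lay near the intron medians. No intron peak of 50 tags or more exceeded 14.3-fold, and none of 100 tags or more exceeded 9.60-fold.

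**Figure D1:**
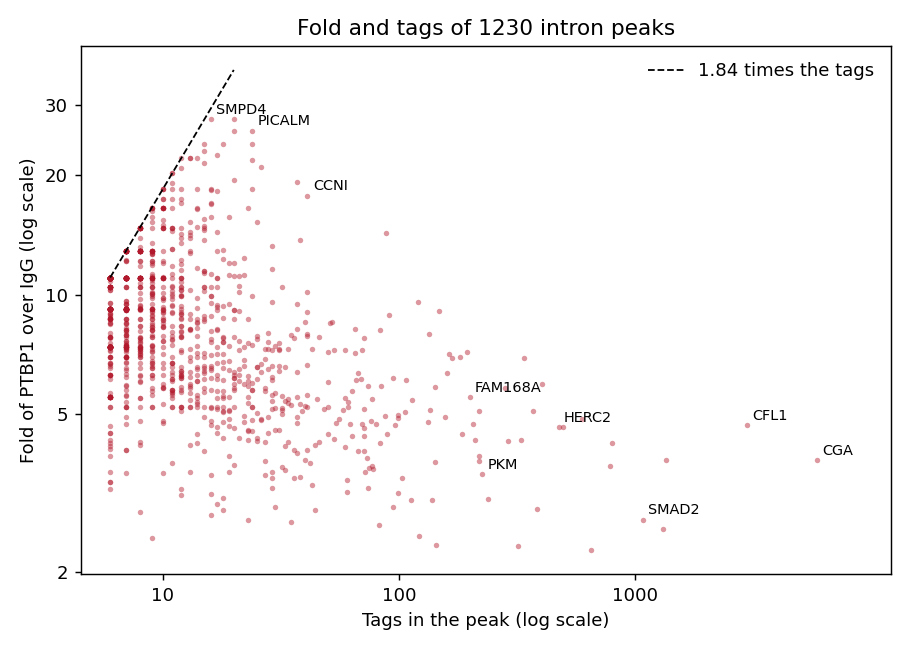
Fold of PTBP1 over IgG (vertical, log scale) against the tags in the peak (horizontal, log scale), 1 point for each of the 1230 intron peaks, with a dashed line at 1.84 times the tags. The points of few tags form level rows below the line, the highest folds lie between 10 and 30 tags, and CFL1 and CGA stand at the far right with folds of 4.69 and 3.83.

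**Figure D2:**
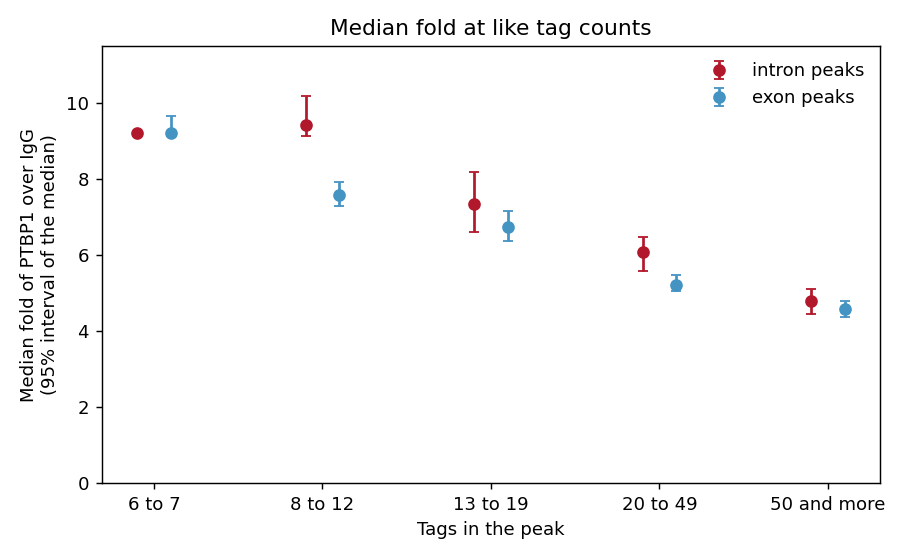
Median fold of PTBP1 over IgG of intron peaks (red) and exon peaks (blue) in 5 classes of tag count, with the 95% interval of each median as bars. Both medians are 9.20 at 6 to 7 tags, the intervals are apart at 8 to 12 and at 20 to 49 tags, and both medians are below 5 from 50 tags up.

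Some folds recurred among the intron peaks. The fold 11.04 was given to 158 peaks (12.8%), 9.20 to 82, 7.36 to 53 and 12.88 to 49. All of these are whole multiples of 1.84, and so were the folds of 412 intron peaks (33.5%, 30.9 to 36.2%) within a tolerance of 0.011. The share was 14.2% (12.9 to 15.5%) for exon peaks and 25% (22.7 to 27.4%) for intergenic peaks. No mRNA peak had more than 1.84-fold per tag, and 127 intron peaks were at that limit, so a peak of 6 tags could not exceed 11.04. In the plot of fold against tags the shared values appear as level rows.

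The 10 highest folds came from peaks of 12 to 24 tags. GTPBP6, a GTP-binding protein, led with a 27.61-fold peak of 20 tags (chrX:228322-229194) and had a 25.76-fold peak of 20 tags at the matching place on chromosome Y (chrY:178578-179194). The gene lies in the pseudoautosomal region, so both entries are copies of 1 locus and their reads cannot be told apart. SMPD4, a sphingomyelinase, had 27.61-fold with 16 tags (chr2:130929564-130930151). PICALM, a clathrin assembly protein, followed with 25.87-fold and 24 tags, and KIAA1549, known as a fusion partner of BRAF in brain tumours, with 24.01-fold and 24 tags. PUM3, an RNA-binding protein of the Pumilio family, and MARC1, a mitochondrial reductase, each had 23.93-fold, with 15 and 18 tags. BORCS5, which positions lysosomes, reached 23.05-fold with 15 tags. TDP1, which repairs DNA linked to topoisomerase, reached 22.51-fold with 17 tags, and ATP2C2, a calcium and manganese pump of the Golgi, 22.09-fold with 12 tags. PITPNA, PIP4K2B and PAIP1 had the same fold of 22.09 with lower p scores. In all 19 intron peaks (1.54%) had a fold of 20 or more, against 1.04% of all mRNA peaks, 1.47% of the intergenic peaks and 0.692% of the exon peaks.

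The peaks with the most tags were other genes, and their folds were low. CGA, the alpha subunit shared by the glycoprotein hormones, had 5859 tags in a 1440-base peak at 3.83-fold (chr6:87795185-87796624). CFL1, the actin-severing protein cofilin, had 2973 tags at 4.69-fold (chr11:65622149-65623861). Both peaks ran past the end of the transcript and so cannot be purely intronic. STOM, a membrane protein, had 1351 tags at 3.82-fold, and AFF1, a scaffold of the super elongation complex, 1308 tags at 2.56-fold. SMAD2, which carries the TGF-beta signal to the nucleus, had 1074 tags at 2.71-fold in a peak of 456 bases, 77782 bases after the start of the gene. ZFP36L1, which directs the decay of AU-rich mRNAs, had 800 tags at 4.22-fold. ZNF133, a zinc finger gene, had 650 tags and the lowest fold of all intron peaks, 2.27. PDE12 (782 tags), ULK4 (594 tags) and FAM71D (496 tags) completed the 10, at 3.70-fold, 4.86-fold and 4.63-fold. None of these 10 was among the 10 highest folds.

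The p score named a further set. FAM168A had the highest score, 371.46, from 199 tags at 5.52-fold in 388 bases (chr11:73221583-73221970). FAM71D scored 341.23, TMEM104 267.33 and C4orf51 234.71. C16orf72 was the tenth, with 197.28. CCNI, an atypical cyclin, combined a score of 216.83 with 17.73-fold and 41 tags, and ABCC2, an export pump of organic anions, a score of 208.39 with 21.86-fold and 24 tags. DYNC2H1, the heavy chain of the ciliary dynein, had 50 tags at 7.15-fold. Each peak named here for its score carried a deposited false discovery rate of 100%. It was 100% for 12 intron peaks in all, whose p scores ran from 182.15 to 371.46, and under 60% for 1179 peaks, whose scores ran from 30.01 to 110.73. The rate never fell below 43.09%. The peaks of the highest p scores thus carried the highest deposited rates, and a low rate did not mark the peaks of the smallest p-value.

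Very short and very long peaks were less frequent in introns than in exons. The median length was 521.5 bases (512 to 532, range 200 to 5294), against 442 (420 to 468) for exon peaks and 529 (521 to 537) for all mRNA peaks. Lengths under 300 bases made up 10.4% of the intron peaks, 23.7% of the exon peaks and 9.72% of the promoter peaks. Lengths of 2000 bases or more were found for 18 intron peaks (1.46%), 2.60% of the promoter peaks and 8.45% of the exon peaks. KIAA1522 (5294 bases, 337 tags, 6.92-fold), PPARGC1A (5187 bases, 280 tags, 5.82-fold) and CELF1 (4873 bases, 147 tags, 9.11-fold) were the longest. PPARGC1A encodes a coactivator of mitochondrial genes, and CELF1 is itself a splicing and mRNA stability factor. SETD7, a lysine methyltransferase, and PGAP2, which acts on GPI anchors, followed with 4062 and 3699 bases.

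Intron peaks spread along the gene. When each transcript was cut into 5 equal parts of its genomic length, 68.3% (65.6 to 70.8%) of the centres fell in the middle 3 parts, 16.3% (14.3 to 18.4%) in the first and 15.4% (13.5 to 17.6%) in the last. Exon peaks by contrast had 48.1% in the last of these parts. The median distance from the start was 21933 bases (20199 to 24267), from 2001 to 479539. The annotation gave the promoter class to peaks nearer the start, and 1409 promoter and 490 upstream peaks were centred inside a listed mRNA transcript, so the count near the start is set in part by the class order.

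No intron peak lay nearer than 2001 bases to the start, where peaks were given the promoter class. More of the first of the 5 parts was thus closed to intron peaks in short transcripts than in long ones. The share in this part was lowest in short genes, in part by that rule, and highest in the longest ones. It was 9.38% (6.01 to 14.3%) of the 192 peaks in transcripts under 20 kb, 13.7% (10.6 to 17.5%) at 20 to 50 kb, 17.3% (13.5 to 21.8%) at 50 to 100 kb, 16.6% (12.4 to 21.9%) at 100 to 200 kb and 34.3% (25.9 to 43.8%) of the 105 peaks in transcripts of 200 kb and more. The share in the last part was 12.5% (8.55 to 17.9%) in transcripts under 20 kb, 11.3% (8.51 to 14.9%) at 20 to 50 kb, 14.8% (11.3 to 19.1%) at 50 to 100 kb, 23.8% (18.8 to 29.7%) at 100 to 200 kb and 19.05% (12.7 to 27.6%) at 200 kb and more. The farthest peak lay in ADK, adenosine kinase, 479539 bases after the start (11 tags, 5.57-fold). TRAPPC9, a subunit of a vesicle tethering complex, followed at 438077 bases (6 tags, 11.04-fold). ROBO1, an axon guidance receptor, had peaks at 388141 and 383474 bases, and DIS3L2, a 3′ to 5′ exonuclease, one at 375347 bases.

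**Figure D3:**
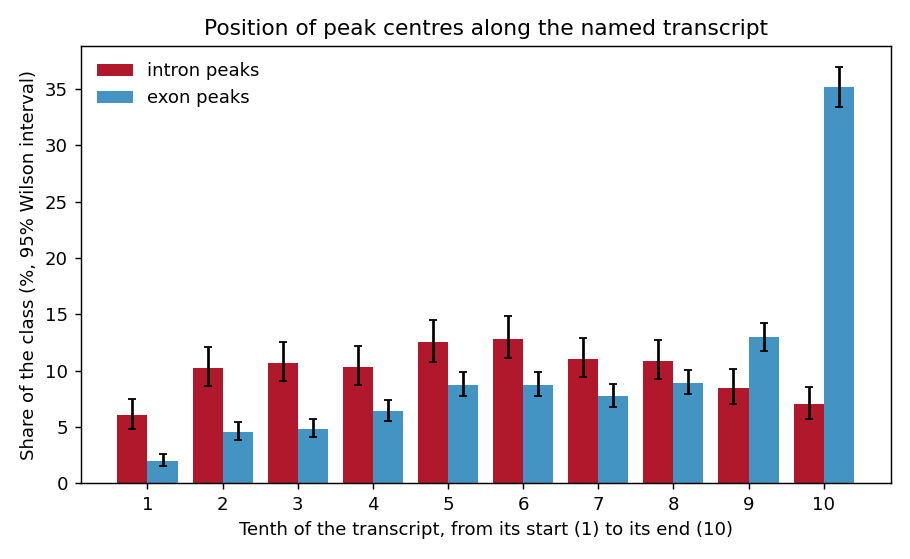
Share of intron peaks (red, n = 1230) and exon peaks (blue, n = 2747) whose centre fell in each of 10 equal parts of the named transcript, from its start (1) to its end (10), with 95% Wilson intervals as bars. Intron peaks are fewest in part 1, with 74 peaks, and most in part 6, with 158, while the exon peaks rise to their highest bar in part 10.

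Longer genes had an intron peak more often. Of the genes named in the mRNA list, 3.80% (2.78 to 5.17%) of those under 10 kb had one. The share was 20.6% (18.6 to 22.7%) at 20 to 50 kb, 31.8% (28.1 to 35.8%) at 100 to 200 kb and 32.7% (27.5 to 38.5%) at 200 kb and more. Over the whole list 19.2% of the 5186 gene names had an intron peak, which was 4.96% of the 20056 protein-coding genes of RefSeq. Both shares are the background for the gene groups below.

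Most genes had a single intron peak. There were 811 genes with 1 intron peak, 133 with 2, 35 with 3, 7 with 4 and 4 with 5, so 18.1% (15.8 to 20.6%) of the 990 genes had several. Neighbouring peaks of a gene lay a median of 6188 bases apart (239 pairs, 3 to 279865), with 37 pairs under 1000 bases. For 402 genes (40.6%, 37.6 to 43.7%) the intron peaks were the only peaks named. An exon peak was also named for 369 of the 990 genes (37.3%, 34.3 to 40.3%), close to the 38.0% of all genes in the list. A promoter peak was less frequent beside an intron peak (22.02%, 19.5 to 24.7%) than over all genes (36.2%), and so were upstream (10.7% against 21.8%) and intergenic peaks (7.68% against 18.8%). The share over all genes counts only genes with at least 1 peak of some class, which raises it.

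Within the same gene the intron peak more often had the higher fold and the exon peak more often had more tags. Over the 198 genes with exactly 1 peak of each class, the intron peak had the higher fold in 136, the exon peak in 61, and 1 was equal. The exon peak had more tags in 117 of these genes, the intron peak in 61, and 20 were equal. The pairs were not matched on tags, and the part of tags in the fold difference was not tested. PTBP3, the PTBP1 paralog, had 1 intron peak of 12.84-fold and 17 tags (chr9:115030003-115030529). Its 3 exon peaks had folds of 5.55 to 9.57, all lower, and the one of 9.57-fold held 148 tags.

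TMEM245, a membrane protein gene, had close clusters of peaks, as did CTH, cystathionine gamma-lyase. The 5 TMEM245 intron peaks covered 6626 bases (chr9:111843037-111849662), with gaps of 1628, 68, 112 and 3 bases. From low to high coordinate they held 9, 17, 37, 18 and 50 tags, at 9.19-fold, 14.4-fold, 19.23-fold, 7.10-fold and 5.22-fold. The fold was highest in the middle peak and the tags in the last one, and whether these are 1 stretch of signal or several cannot be told from the table. CTH had 4 peaks of 6 or 7 tags within a still shorter span of 4943 bases, at 8.71-fold to 10.44-fold. Its 4 peaks together held 25 tags, against 131 in TMEM245.

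The other genes with 4 or 5 intron peaks had them spread more widely. EGFR, the receptor of epidermal growth factor, had 5 peaks over 79257 bases (chr7:55163350-55242606), with 6, 6, 10, 13 and 11 tags from 5′ to 3′ and folds of 11.04, 7.36, 5.95, 10.24 and 17.4. The peak nearest the 3′ end had the highest fold, and none held more than 13 tags. RNF213, a very large ubiquitin ligase, had 5 peaks over 123459 bases with 7 to 17 tags, and KYNU, which cleaves kynurenine in tryptophan breakdown, 5 over 57377 bases with 6 to 37 tags. ABCC2 had 3 peaks of 5.36-fold to 9.20-fold beside the 21.86-fold peak named above. BACE2, an aspartyl protease, had a close pair at 16.56-fold and 11.04-fold (10 and 7 tags) and a second pair at 5.14-fold and 7.86-fold (71 and 41 tags). ANTXR1, DGKD, ERGIC1 and TMEM120B had 4 peaks each, with folds from 5.49 in DGKD, a diacylglycerol kinase, to 12.88 in ERGIC1 and TMEM120B.

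**Figure D4:**
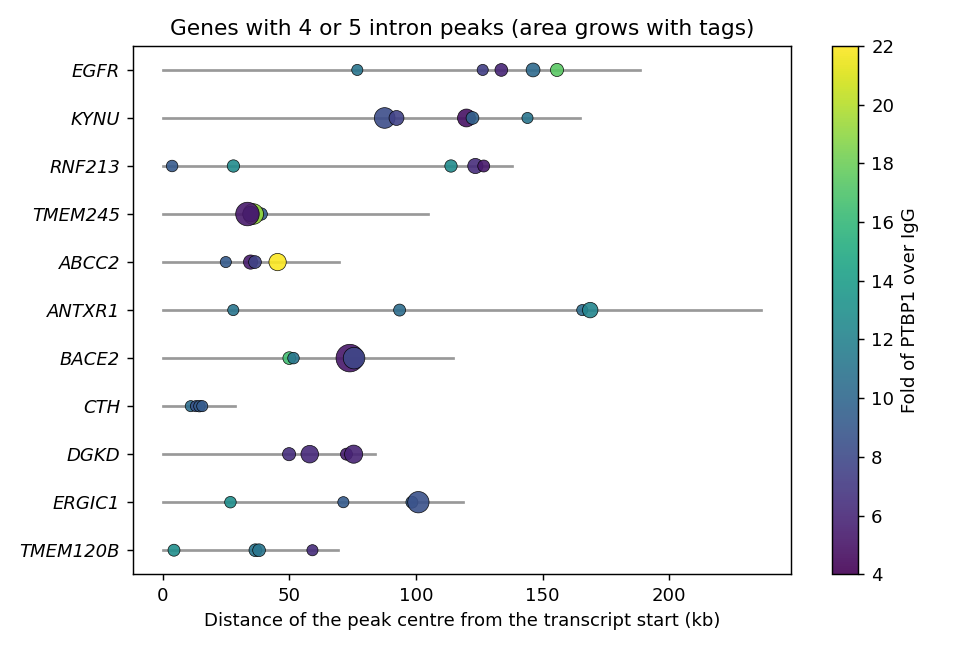
Genes with 4 or 5 intron peaks, drawn as lines from the transcript start to the end of the longest listed transcript, with 1 circle for each peak centre (distance in kb), its area growing with the tags and its colour giving the fold. The 5 peaks of TMEM245 lie on top of each other within 6626 bases, those of RNF213 and ANTXR1 are spread over more than 100 kb, and the 21.86-fold peak of ABCC2 is the brightest circle.

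Among genes whose transcripts PTBP1 is known to regulate, 12 of 47 had an intron peak (25.5%, 15.3 to 39.5%), above the 4.96% of all protein-coding genes. Of the 24 with any peak these 12 were 50%, against 19.2% of all genes in the list. The 24 genes had a median transcript length of 48097 bases, against 29922.5 for all genes in the list, and the part of length in the difference was not tested. Their 17 intron peaks had a median fold of 9.41 and a median of 15 tags, against 8.285 and 10 for all intron peaks. The list was chosen with earlier results of these data known.

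PICALM had 3 of these peaks, at 25.87-fold (24 tags, chr11:85692837-85693544), 14.72-fold (8 tags, chr11:85701275-85701644) and 11.04-fold (12 tags, chr11:85711645-85712296), and a promoter peak of 7.08-fold. All 3 intron peaks exceeded the fold of the promoter peak, which held more tags (32). ACTN1, the actin crosslinker alpha-actinin, whose muscle exon is a textbook target of PTBP1, had peaks of 15.47-fold (15 tags, chr14:69403274-69403767) and 9.41-fold (11 tags, chr14:69354594-69354946), and no peak of another class. GABBR1, a subunit of the GABA-B receptor, had an intron peak of 14.72-fold with 11 tags, 2382 bases after the start. ROBO1 had intron peaks of 14.72-fold (10 tags) and 4.48-fold (28 tags), and an exon peak of 20.25-fold with 11 tags lay 379621 bases after the start, next to them. The far part of ROBO1 thus held peaks of both classes.

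CTTN, the cortical actin protein cortactin, had 2 intron peaks of 6.52-fold (16 tags) and 6.26-fold (9 tags). IKBKB, a kinase of the NF-kappaB pathway, had 11.04-fold with 6 tags, and DST, a cytoskeletal linker, 8.71-fold with 10 tags. TPD52L2 had 7.07-fold with 17 tags. INSR, the insulin receptor, had 5.32-fold with 34 tags (chr19:7197532-7198143). PKM, the pyruvate kinase whose choice between a pair of exons PTBP1 controls, had 224 tags but 3.53-fold in a peak 12696 bases after the start (chr15:72510983-72511555). CLTA, a clathrin light chain, had 74 tags at 3.26-fold. The lowest folds of the group thus belonged to the genes with the most tags. Where these peaks lie relative to the regulated exons was not analysed here.

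Among the genes that the study followed and the PTBP genes, TGFB1 and PTBP3 had an intron peak. The genes looked up are too few for a comparison with the background shares. TGFB1, the ligand whose mRNA the study examined, had 1 (chr19:41847744-41848285, 15 tags, 6.13-fold), at the middle of the transcript, 11774 bases after the start. This is below the median fold of intron peaks and above their median tag count. PTBP3 had 1. None was named for TGFB2, ID2, PTBP1, PTBP2 or SGO1. TGFB1 also had 2 exon peaks and 1 promoter peak. The study counted TGFB1, TGFB2 and ID2 among its PTBP1-bound transcripts and reported their binding by RIP and qPCR. The absence of an intron peak does not bear on that binding. In TGF-beta signaling as a whole 2 of 48 genes had an intron peak (4.17%, 1.15 to 14.0%), TGFB1 and SMAD2, although 22 had a peak of some class. Genes of epithelial junctions and the epithelial-mesenchymal transition had 4 of 45 (8.89%, 3.51 to 20.7%), namely TJP1, a tight junction scaffold (11.04-fold, 6 tags), MAGI3, LLGL1 and CTNND1. Both intervals include the background of 4.96%. Among the genes with any peak, 9.09% of the TGF-beta list and 25% of the junction list had an intron peak. Their median transcript lengths were 51967 and 51282 bases. Of all listed genes of 50 to 100 kb, 27.0% had one.

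Genes of RNA processing had intron peaks at a higher share. Of 63 splicing and RNA processing factors, 14 had one (22.2%, 13.7 to 33.9%), with a median fold of 7.74 over 15 peaks. SF3B1, the core of the branch-point complex, had 21.49-fold (15 tags, chr2:198281427-198281963) and 12.65-fold (9 tags) peaks. RBM10, a splicing regulator, had 16.56-fold with 9 tags, MBNL2 11.04-fold with 6 tags, and RBM25 9.23-fold with 8 tags. SRSF3 and SRSF11, of the SR protein family, were at 4.71-fold (62 tags) and 4.15-fold (33 tags). The U2AF1 peak was also listed for the near-identical U2AF1L5, so its origin is uncertain.

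Of 32 hnRNP genes 6 had an intron peak (18.8%, 8.89 to 35.3%), of only 9 with any peak. HNRNPR had 3 (10.44-fold, 7.83-fold and 4.93-fold, with 6, 9 and 7 tags), and PTBP3, HNRNPUL1, HNRNPD, HNRNPLL and HNRNPM had 1 each. HNRNPD, which binds AU-rich elements, had the most tags of these, 46 at 7.83-fold. In the silencing complex and mRNA decay 7 of 40 genes had one (17.5%, 8.75 to 32.0%). They included SMG1, a kinase of nonsense-mediated decay (11.04-fold, 6 tags), UPF3A, CNOT4 and CNOT8. AGO2, the catalytic argonaute, had 2.84-fold with 8 tags, near the lowest fold of intron peaks with 8 to 12 tags, 2.43. The lower bounds of all 3 groups lay above 4.96%. Among their members with any peak, 38.9%, 66.7% and 28.0% had an intron peak, against 19.2% over the list. The median transcript lengths of these members were 28407.5, 44201 and 64211 bases. Of all listed genes, 20.6% had an intron peak at 20 to 50 kb and 27.0% at 50 to 100 kb. The 28.0% of the silencing and decay genes was thus near the share of genes of like length. The part of length in these shares was not tested.

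Cytoskeletal and adhesion genes had intron peaks at 11 of 64 (17.2%, 9.88 to 28.2%). Of the 28 with any peak, 39.3% had an intron peak, at a median transcript length of 80220 bases. Of all listed genes of 50 to 100 kb, 27.0% had one. MYO10, a myosin of filopodia, led with 19.49-fold and 20 tags, followed by ACTN1. SVIL, which anchors actin to membranes, had 3 peaks of 12.98-fold, 12.88-fold and 10.44-fold with 18, 8 and 6 tags. KIF5B, a kinesin heavy chain, had 12.88-fold with 9 tags, and DAAM1, a formin, 12-fold with 9 tags. Small GTPases and their regulators had 10 of 88 (11.4%, 6.29 to 19.7%). Of the 32 with any peak, whose median transcript length was 105946.5 bases, 31.2% had an intron peak, near the 31.8% of all listed genes of 100 to 200 kb. They included ARHGAP21 (12.88-fold, 13 tags), ARHGAP29 and ARHGAP10 (11.04-fold, 6 tags each), and RAB7A, of late endosomes, with 167 tags at 6.92-fold.

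Kinases had 18 of 143 (12.6%, 8.11 to 19.02%) with 31 peaks. Of the 70 with any peak, 25.7% had an intron peak, at a median transcript length of 87758.5 bases. This share was near the 27.0% of all listed genes of 50 to 100 kb. After EGFR, JAK1, a kinase of cytokine receptors, had 3 peaks of up to 14.72-fold (10 tags), and PRKDC, the DNA-dependent protein kinase, CSNK1A1 and ABL2 each reached 12.88-fold with 8 tags. Ubiquitin ligases and deubiquitinases had 16 of 96 (16.7%, 10.5 to 25.4%) with 24 peaks and the highest median fold of the lists with 3 or more intron peaks, 10.34, on a median of 7.5 tags. HUWE1 led with 16.96-fold (16 tags), then USP47 with 15.69-fold (9 tags). HERC2 stood apart with 473 tags at 4.64-fold. Of the 42 genes of this list with any peak, 38.1% had an intron peak, at a median transcript length of 112048.5 bases. Of all listed genes of 100 to 200 kb, 31.8% had one. Genes of the cell cycle and DNA repair had 13 of 78 (16.7%, 10.01 to 26.5%), which was 37.1% of the 35 with any peak (median length 40411 bases). Of all listed genes of 20 to 50 kb, 20.6% had one. Examples were LIG3, a DNA ligase (12.88-fold, 8 tags), XRCC5, which holds broken DNA ends (11.31-fold, 15 tags), and the replication helicase subunit MCM5 (10.18-fold, 9 tags).

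Membrane transporters had 9 of 59 (15.3%, 8.24 to 26.5%), which was 32.1% of the 28 with any peak (median length 65218.5 bases). Of all listed genes of 50 to 100 kb, 27.0% had one. The part of length in the shares of these lists was not tested. ABCC3 (16.98-fold, 16 tags) and ABCC4 (11.04-fold, 7 tags) stood beside ABCC2, all 3 of them export pumps of 1 family. Chromatin modifiers had 7 of 97 (7.22%, 3.54 to 14.2%), although 46 of them had a peak of some class. The highest was KDM4A, a histone demethylase, with 12.88-fold and 7 tags. Nuclear receptors and coactivators had 3 of 39 (7.69%, 2.65 to 20.3%), which were PPARD, PPARG and MED1. The intervals of the last 2 lists include 4.96%. Among the genes with any peak, 15.2% of the 46 chromatin modifiers and 25% of the 12 nuclear receptors and coactivators had an intron peak. Their median transcript lengths were 80084.5 and 64923.5 bases, so the 27.0% at 50 to 100 kb is the share at like length. The share of the chromatin modifiers was lower than that.

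Ribosomal protein genes, which are short and highly transcribed, had 1 of 74 (1.35%, 0.239 to 7.27%). It was RPS24, with 288 tags at 4.28-fold (chr10:79796794-79797514). The 12 ribosomal protein genes with any peak had a median transcript length of 4835 bases. Of 58 long neuronal adhesion and synaptic genes, 0 had an intron peak (upper bound 6.21%) and 5 had a peak of any class, with a median length of 787369 bases among these 5. The intervals of both lists include the background of 4.96%.

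Marker genes bore on the label of the cells only weakly, since a peak is not an expression level, and they did not single out gastric epithelium. Of 27 gastric epithelial markers 2 had a peak of any class and 1 an intron peak, CLDN18, a claudin of the stomach (7.36-fold, 6 tags). Of 27 blood markers 1 had a peak and none an intron peak, and of 17 stromal and endothelial markers 2 and none. Of 30 neuron, muscle and liver markers 8 had a peak and 1, MBP, a myelin protein, had intron peaks (13.7-fold with 38 tags and 5.22-fold with 20 tags). For comparison, the mRNA list named 5186 genes, beside 20056 protein-coding genes of RefSeq. Gastric markers were named less often than that, and neuron, muscle and liver markers about as often. For each of these marker lists the interval of the share with an intron peak includes 4.96%.

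**Figure D5:**
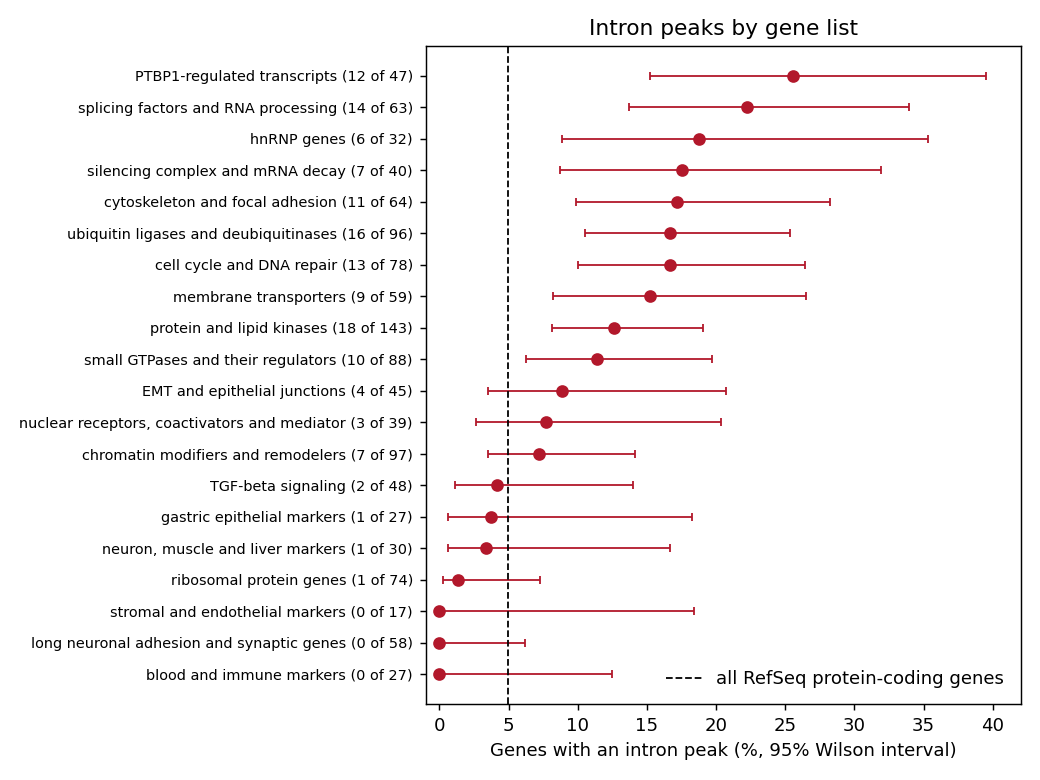
Share of the genes of each list that had an intron peak (points, with 95% Wilson intervals as bars), with the counts beside the names and a dashed line at the 4.96% of all RefSeq protein-coding genes. The interval lies above the line for 10 lists, from PTBP1-regulated transcripts (25.5%) to small GTPases and their regulators (11.4%), and includes it for the other 10. The line counts genes with and without any peak and takes no account of gene length.

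Noncoding transcripts were named at intron peaks at a share near that of exon and intergenic peaks. Of the 1230 peaks 118 (9.59%, 8.07 to 11.4%) were also in the lncRNA list, against 12.7% of all mRNA peaks. In that list were also 7.72% of the exon, 8.51% of the intergenic, 16.1% of the upstream and 22.5% of the promoter peaks. None of the 118 had another class there, and 106 were listed for a noncoding transcript of the same gene. In the mRNA list all 1281 positions with an intron row had intron in their first row too. The class may thus go with the position, so the absence of another class may have been fixed in advance. At 17 intron peaks a transcript of another gene in the lncRNA list overlapped the peak, and in 17 of 17 it ran on the opposite strand. The highest folds of these were 16.56 in ZAK, a stress kinase, under MLK7-AS1 (10 tags) and 12.98 in SVIL under SVIL-AS1 (18 tags). PRC1, which bundles spindle microtubules, had the most tags of these, 71 at 4.41-fold, under PRC1-AS1. Without strand, such a peak cannot be assigned to the intron or to the antisense RNA.

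A further 7 peaks were listed for 2 mRNA gene names, either near-identical copies (SMN1 and SMN2, U2AF1 and U2AF1L5, SPDYE2 and SPDYE2B) or a gene and its readthrough (RBM14-RBM4, PMF1-BGLAP, TMEM189-UBE2V1 and DNAJC25-GNG10). The SMN1 and SMN2 peak, in the genes of the motor neuron disease SMA, had 37 tags at 5.51-fold, and the RBM4 peak, in a splicing factor gene, 122 tags at 2.46-fold. Their assignment to 1 gene is uncertain.

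Across the chromosomes, intron peaks made up between 9.22% of the mRNA peaks on X (27 of 293, 6.41 to 13.1%) and 26.5% on chromosome 21 (18 of 68, 17.4 to 38.0%), leaving out Y with 2 of 5 peaks, at GTPBP6 and PCDH11Y. Chromosome 1 held the most, 115. The named transcripts were on the plus strand for 652 peaks and on the minus strand for 578.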

How the data were processed

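MKN-28 cells gave 1 PTBP1 and 1 IgG RIP-seq library. The submitters' processing notes name cutadapt (1.9.3), Bowtie2 (2.2.4) and hg19. The sources used here name no peak caller. The authors deposited, for each peak, a count of tags, without stating which library was counted. The deposited fold is a ratio of PTBP1 over IgG. The deposited score is 10 times the negative log10 of the p-value, and the authors' false discovery rate is a percent. Total tags per library, and so the depth, are unknown. Coordinates are those deposited, counted from 1.

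Peaks were counted once per position. Shares have 95% Wilson intervals and medians have intervals from binomial order statistics. Both were tested on simulated independent values, without ties for the medians. The folds and tags here hold many ties and a gene can hold several peaks, which the simulation did not cover. PCR duplicates and replicates are not covered by the intervals. The members, the 20 gene lists, taken from general knowledge, and all comparisons were chosen with earlier results of these data known. Symbols were matched through RefSeq GRCh38.p14, used for names only: 1133 of 1134 list symbols and 991 of 997 intron gene names, counted over all listed transcripts, matched. Genes named are the 10 highest by fold, tags, p score and number of intron peaks (11 with ties; ties in fold went to the higher p score), the 5 longest and farthest, up to 5 per list, PTBP1-regulated genes and those the study followed. AGO2, SRSF3, SRSF11, U2AF1, HNRNPM, RAB7A, HERC2, PITPNA, PIP4K2B, PAIP1, PCDH11Y, ETV2, FKBP11 and the genes at noncoding or duplicated loci fall outside it and were chosen after their values were seen. Alternatives were stricter folds, p scores, tags and false discovery rates, merged peaks, 1 peak per gene, whole overlap, the names left out, no lncRNA peaks, and the last row per position. Computation used scipy (1.17.1), pandas (2.3.3), matplotlib (3.10.9) and numpy (2.4.6) under Python (3.11.15).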

Additional observations from a re-analysis of the deposited data

How the results depend on the processing

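Selecting peaks changed the counts but hardly the share in the first part of the transcript. Other measures of position were not recomputed. With a fold of at least 10, 411 peaks of 368 genes remained, with a median of 11.04-fold and 8 tags, and 10.1% of the genes had several. Keeping p scores from 50 up left 425 peaks of 388 genes, at 11.04-fold and 13 tags, and 8.76% had several. With at least 20 tags there were 273 peaks of 253 genes, at 5.47-fold and 37 tags, and 7.51% had several. With a false discovery rate at or below the median of all mRNA peaks (44.97%) there were 677 peaks of 600 genes, and 10.5% had several. By construction, a fold minimum raises the median fold and fewer peaks leave fewer genes with several. The share in the first of 5 equal parts of the transcript ran from 14.7% to 17.9% over all 11 alternatives, within the interval of the value reported. No member had another class in the lncRNA list under any of the 10 alternatives that leave such peaks. The annotation may have fixed this in advance. The remaining alternatives moved no other count by over 1.5 times. No paired analysis was possible because there was 1 library of each kind. Most peaks hold few tags, which limits the fold of each.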
